A study of Mus musculus with 48 samples.

Results

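The mouse Pax6 gene contributed 9 short DNA elements to a reporter library of 11709 elements. Members were the library elements of the classes named E14 and Shadow whose names carry coordinates (mouse build mm10) on chromosome 2 between 105600000 and 105750000. The rule used class and position and no measured value, and it found 5 E14-class and 4 Shadow elements among the 1834 elements with coordinates (931 E14 and 903 Shadow). The locus was chosen with earlier results of these data known, so the choice was not blind to the activity described below. The sources used here do not say what the class names mean. The class name E14 is also the name of an age, so the text writes "E14-class element" for the one and "age E14" for the other.

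The study was a massively parallel reporter assay: plasmids carrying the elements are delivered as a pool, and reporter RNA is compared with plasmid DNA for each element. All groups were C57BL/6JRj mouse embryos, with no genotype or drug treatment to tell them apart. The pool was electroporated in utero into the somatosensory cortex between embryonic day (E) 12 and 16, and tissue was taken after 24 h, which gave the ages E13, E14, E15, E16 and E17. The cells were fixed, permeabilised and sorted by staining into neural stem cells (NSC, Pax6-positive) and intermediate progenitors (IPC, Tbr2-positive), 10 groups of cell type and age. At ages E14 and E15 each cell type had 3 biological samples and at the other ages 2, and every sample had a library of DNA and one of RNA (48 libraries in all).

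Pax6 is a transcription factor with a paired domain and a homeodomain. In the developing dorsal cortex it is made by radial glia, the neural stem cells of the ventricular zone, and its level falls as cells become intermediate progenitors, which switch on Eomes (the gene of Tbr2). Pax6 is read from more than 1 promoter and is known for enhancers that lie within the gene and at long range, including within the neighbouring gene Elp4. Because Pax6 protein was itself the stain used to sort NSC, the sorted classes differ in Pax6 by construction. An episomal reporter reads an element away from its chromosome.

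All 9 elements lay inside the Pax6 gene. In the RefSeq annotation of GRCm38.p6, the assembly behind mm10, Pax6 runs on the plus strand of chromosome 2 from 105668896 to 105698410, over 29515 bases. It has 2 annotated starts, at 105668896 and 105682463, which are 13.6 kb apart. The elements are named here by the distance of their centre from the first start. They lay at chr2:105673123-105673388 (+4.36 kb), chr2:105677754-105678019 (+8.99 kb), chr2:105680591-105680856 (+11.8 kb), chr2:105686827-105687092 (+18.1 kb) and chr2:105690065-105690330 (+21.3 kb). The Shadow class had an element with the same coordinates at each of these positions but +8.99 kb. Relative to the second start, the +11.8 kb position lay 1.74 kb upstream and the +18.1 kb position 4.50 kb downstream. None of them overlapped another annotated gene or the promoter windows of Pax6, which span 250 bases before and 50 after a start. Whether they are exonic or intronic was not analysed here, and neither were the sequences of the elements. On either side, Pax6os1 overlapped the 5' end of Pax6 and Elp4 its 3' end.

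For each element the deposited table gave 1 activity value, called statistic, in each of the 10 groups, so the groups are called columns here. The 2 or 3 biological samples behind a column were pooled by the authors, the spread between them is not known, and no element could be tested across biological samples. Depth is unknown, because no read counts are in the table. Each value was divided by the median of the scrambled control elements of its column, so that 1 stands for the level of the middle scrambled control; this ratio is called the fold below. The scrambled median itself was lowest in NSC at E13 (0.164) and highest in NSC at E17 (2.37). Columns held values for 11255 to 11611 elements, and all 9 Pax6 elements had a value in all 10.

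The E14-class element at +18.1 kb stood above the scrambled median in 10 of 10 columns. From E13 to E17 its fold in NSC was 17, 2.47, 1.37, 7.73 and 4.32. In IPC it was 34.1, 3.70, 6.20, 1.27 and 2.25. The highest value of both cell types was thus at E13, and the lowest came at E15 in NSC and at E16 in IPC. Its median fold over the 10 columns was 4.01. Of the 889 E14-class elements with 10 values, 50 (5.62%) were above the scrambled median in every column, against 4 of 955 scrambled controls (0.419%).

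On a log2 scale, log2(fold + 0.1) minus log2(1.1), a value of 0 stands for the scrambled median, and low values are drawn in by the pseudocount of 0.1. On this scale the +18.1 kb element averaged 2.09 ± 1.38 in NSC (SD over 5 ages) and 2.14 ± 1.78 in IPC. These SDs describe ages, not replicates. Its mean over the 10 columns, 2.11, was the highest of the 889 E14-class elements, and none of the 955 scrambled controls reached it. The NSC mean ranked 10 and the IPC mean 39. The value leaned on E13: without that age the mean over the remaining columns was 1.53 and the element ranked 15 of its class. Without E16 it ranked 2, and without age E14, E15 or E17 it kept rank 1.

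**Figure D1:**
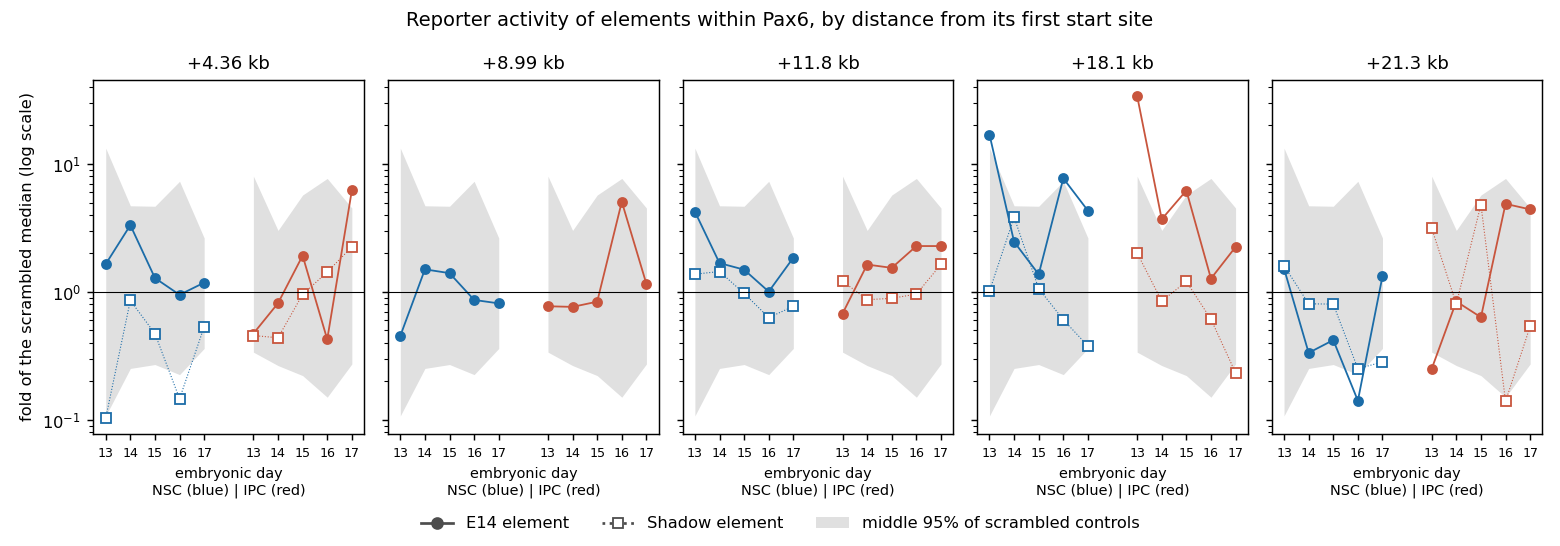
Fold of the scrambled median (log axis) against embryonic day in NSC (blue) and IPC (red), 1 panel per position within Pax6; filled circles are E14-class and open squares Shadow elements, each point 1 pooled value with no replicate error, and grey marks the middle 95% of scrambled controls. The E14-class element at +18.1 kb reaches 34.1 in IPC at E13 and stays above 1 in 10 of 10 columns, while the other elements lie on both sides of 1.

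The authors scored each value as its distance from the scrambled median in units of the scrambled spread (a scaled median absolute deviation, the MAD score) and deposited an adjusted p for values above the controls. An element is called active in a column here where that p is under 0.05. In the authors' deposited table the +18.1 kb E14-class element was called in 7 of 10 columns, 4 of NSC and 3 of IPC. Its MAD score there was 56.6 in IPC at E13, 15.3 in NSC at E13 and 10.6 in NSC at E16, each with p listed as 0. The weakest call in the authors' deposited table was NSC at age E14, with a MAD score of 2.79 and p = 0.0206. It was not called in NSC at E15 or in IPC at E16 and E17. Calls in 7 or more columns were found for 12 of 889 E14-class elements (1.35%), 0 of 847 Shadow elements and 0 of 955 scrambled controls.

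Calls by that p are frequent, also among controls, so the count needs its background. Of all elements that are not scrambled, the authors' p called 15.3%, 14.7%, 12.5%, 19.4% and 13% in NSC, in the order of the ages. In IPC the shares were 19.6%, 11.3%, 14.9%, 16.1% and 18.7%. Among the scrambled controls themselves 6.16% to 15.7% were called, depending on the column. Calls in at least 3 of the 5 columns of a cell type were rarer, at 4.83% of elements in NSC and 5.18% in IPC. Within the E14 class these shares were 9.33% and 15.6%, and among scrambled controls 1.34% and 1.25%. The +18.1 kb element was the one Pax6 element that reached 3 calls, and it did so in both cell types, as did 15 of 889 E14-class elements.

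A direct reading against the scrambled distribution was narrower. The +18.1 kb E14-class element lay above the fold that 2.5% of scrambled controls exceed in 6 columns, and above the fold that 1% exceed in 2. In IPC at E13 its 34.1 stood against a 2.5% limit of 8.04, and 0.406% of scrambled controls were at or above it. In NSC at E17 its 4.32 stood against a limit of 2.64, with 0.505% at or above. At E13 in NSC the scrambled controls were widest, with a limit of 13.3, and 2.12% of them reached the element's 17. In NSC at E15 and IPC at E16, 31.3% and 39.3% of scrambled controls were at or above it.

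The E14-class element at +11.8 kb, just upstream of the second start, had the next highest mean of the locus, with a narrow range. From E13 to E17 its fold was 4.25, 1.68, 1.49, 1.01 and 1.85 in NSC. In IPC it was 0.678, 1.64, 1.54, 2.29 and 2.28. It was above the scrambled median in 9 of 10 columns, IPC at E13 being the exception, but outside the middle 95% of scrambled controls in 0. At least 9 columns above the median were seen in 16.4% of E14-class elements and in 2.30% of scrambled controls. Its mean log2 activity of 0.70 ± 0.66 (SD over 10 columns) ranked 256 of 889, and 5.03% of scrambled controls had a mean at or above it. The authors' deposited table called it in 1 column, NSC at E13 (p = 0.00786).

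The other 3 E14-class elements were called in 1 or 2 columns each and lay on both sides of the scrambled median. At +4.36 kb the fold in NSC was 1.65, 3.33, 1.28, 0.950 and 1.18 from E13 to E17, and in IPC 0.473, 0.817, 1.92, 0.426 and 6.21. Its 2 calls in the authors' deposited table were NSC at age E14 (p = 6.30098e-05) and IPC at E17 (p = 1.8638e-12), and its mean log2 activity was 0.39 ± 1.1 (SD over 10 columns). IPC at E17 was the only column in which it left the middle 95% of scrambled controls.

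At +8.99 kb, the position with no Shadow element, the fold in NSC was 0.454, 1.50, 1.40, 0.866 and 0.814 from E13 to E17. In IPC it was 0.773, 0.764, 0.840, 5.07 and 1.15. It stayed near the scrambled median but for IPC at E16, its single call (p = 8.57462e-06 in the authors' deposited table), and averaged 0.11 ± 0.87 on the log2 scale (SD over 10 columns). The called value lay inside the middle 95% of scrambled controls, with 5.64% of them at or above it. At +21.3 kb the fold in NSC was 1.52, 0.334, 0.421, 0.141 and 1.33, and in IPC 0.251, 0.843, 0.634, 4.88 and 4.42. Both late IPC columns, E16 and E17, were called there (p = 2.44039e-05 and 8.68695e-06 in the authors' deposited table), while 6 of its 10 columns were below the scrambled median. Even so, both called values lay inside the middle 95% of scrambled controls, with 5.74% and 2.93% of controls at or above them. Its mean of -0.19 ± 1.49 (SD over 10 columns) ranked 782 of 889. In IPC at E13 and in NSC at E16 it fell outside the middle 95% of scrambled controls on the low side.

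Calls of the 4 E14-class elements other than +18.1 kb made up 6 of 40 values (15%). The share over all elements that are not scrambled was 11.3% to 19.6% by column, and that of the E14 class alone was higher, 15.5% to 29.0%. The 15% thus lay within the first range and just under the second, with the most active of the 5 left out. With the +18.1 kb element the count was 13 of 50 (26%), within the range of the class. By column, 2, 2, 0, 1 and 1 of the 5 E14-class elements were called in NSC from E13 to E17, and 1, 1, 1, 2 and 2 in IPC. The +18.1 kb element was the highest of the 5 in 6 of 10 columns. The element at +4.36 kb was highest in NSC at age E14 and IPC at E17, that at +8.99 kb in IPC at E16 and that at +11.8 kb in NSC at E15.

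**Figure D2:**
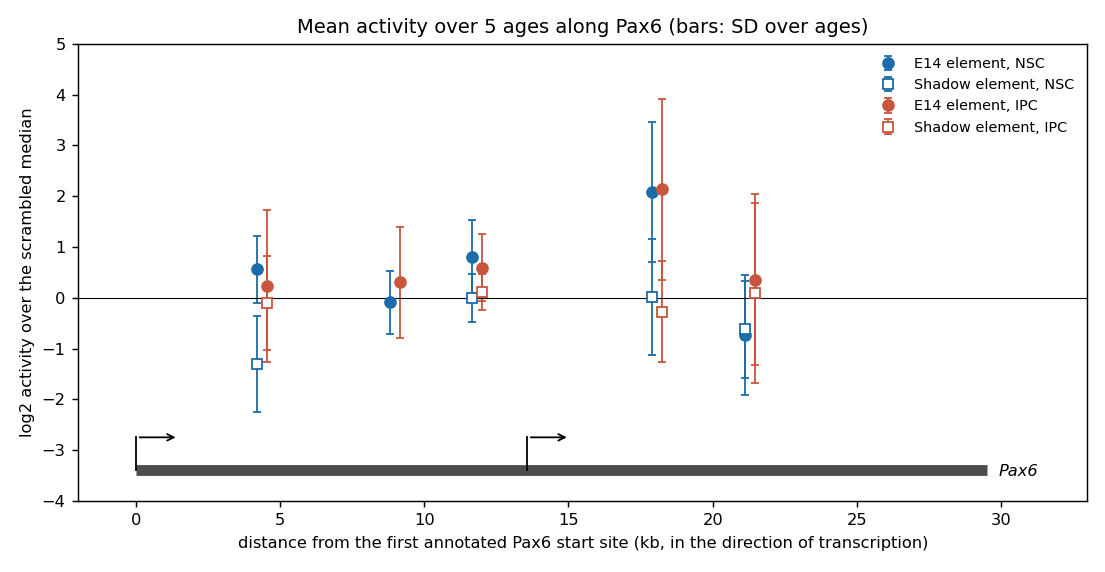
Mean log2 activity of each Pax6 element (filled circles E14-class, open squares Shadow) over the NSC (blue) and IPC (red) columns, with bars for the SD over 5 ages, against the distance of its centre from the first annotated start of Pax6 in kb; the grey bar is the gene and the arrows its 2 starts. The E14-class element at +18.1 kb reaches 2.09 in NSC and 2.14 in IPC, and the Shadow element with the same coordinates 0.02 and -0.27.

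The Shadow elements lay near or below the level of the scrambled controls. At +18.1 kb the Shadow fold in NSC was 1.01, 3.84, 1.06, 0.607 and 0.379 from E13 to E17, and in IPC 2.02, 0.848, 1.21, 0.612 and 0.233. It fell below the scrambled median at E16 and E17 in both cell types, was called only in NSC at age E14 (p = 5.89597e-07 in the authors' deposited table) and averaged -0.13 ± 1.02 on the log2 scale (SD over 10 columns). The called value lay inside the middle 95% of scrambled controls, with 3.52% of them at or above it. At +11.8 kb the Shadow element was the steadiest of the 9, with folds between 0.631 and 1.64, no call and a mean of 0.05 ± 0.40 (SD over 10 columns).

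At +4.36 kb the Shadow fold in NSC was 0.104, 0.858, 0.472, 0.146 and 0.535 from E13 to E17, and in IPC 0.457, 0.438, 0.957, 1.43 and 2.25. It was below the scrambled median in all 5 NSC columns, left the middle 95% of scrambled controls on the low side at E13 and E16, and had no call. Its mean of -0.70 ± 1.09 (SD over 10 columns) ranked 834 of the 847 Shadow elements with 10 values, and 98.3% of scrambled controls had a mean at or above it. At +21.3 kb the Shadow fold in NSC was 1.60, 0.808, 0.804, 0.251 and 0.284, and in IPC 3.15, 0.805, 4.82, 0.140 and 0.539. Its values spread the widest of the 4, with calls in IPC at E13 (p = 0.000804) and E15 (p = 7.16179e-09) in the authors' deposited table. Both called values lay inside the middle 95% of scrambled controls, with 11.9% and 3.47% of controls at or above them. In total 3 of 40 Shadow values were called (7.5%), a share within the range of the scrambled controls. It was just under the range of the Shadow class, 8.84% to 17.5% by column, and rests on few calls.

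E14-class and Shadow elements of the same coordinates were compared column by column. At +18.1 kb the E14-class element was higher in 9 of 10 columns, by 2.24 ± 1.57 on the log2 scale (SD over 10 columns). The difference was 3.94, -0.62, 0.34, 3.47 and 3.21 in NSC from E13 to E17, and 4.01, 2.004, 2.27, 0.95 and 2.82 in IPC. NSC at age E14 was thus the one column where the Shadow element was higher. Of the 759 pairs in the library with 10 values on both sides, this mean difference ranked 2, the largest being 2.63 and the median 0.28.

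At +4.36 kb and at +11.8 kb the E14-class element was also higher in 9 of 10 columns, by 1.1 ± 1.24 and 0.65 ± 0.64 (SD over 10 columns). These mean differences ranked only 107 and 237 of the 759 pairs. At +4.36 kb the difference was 1.87 on average in NSC, where all 5 columns were positive, and 0.33 in IPC. At +11.8 kb it was 0.82 in NSC, again positive in all 5 columns, and 0.49 in IPC. At +21.3 kb the mean difference was 0.07 ± 2.37 (SD over 10 columns) and the E14-class element was higher in 4 of 10 columns. There the pair ran in opposite directions in IPC, with differences of -3.21 at E13 and -2.74 at E15 against 4.38 at E16 and 2.82 at E17. An E14-class element higher in 9 or more columns was found in 65 of 759 pairs (8.56%), and a Shadow element higher in 9 or more in 7 pairs (0.922%).

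None of these differences passed the test across the library. The test was a two-sided exact sign-flip permutation test over the 10 columns, taken as the observations, with Benjamini-Hochberg adjustment over 759 pairs. The exact p was 0.00586 at +18.1 kb (adjusted 0.135), 0.0156 at +11.8 kb (adjusted 0.170), 0.0254 at +4.36 kb (adjusted 0.187) and 0.916 at +21.3 kb (adjusted 0.968). It called 0% of pairs (0 of 759), while 143 (18.8%) had an unadjusted exact p under 0.05. The smallest p that 1024 sign patterns allow is 0.00195, and the smallest adjusted p reached was 0.0872. Columns are pooled values and not replicates of a condition.

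**Figure D3:**
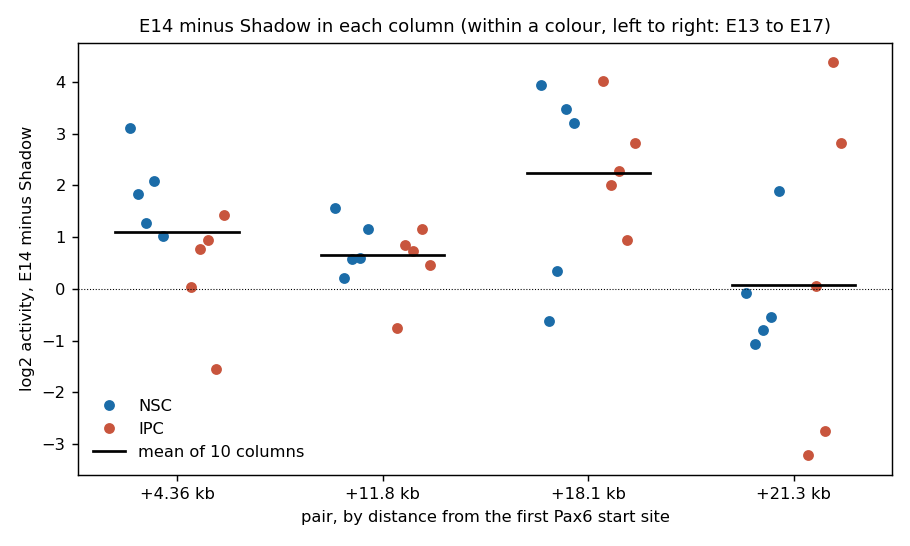
Difference in log2 activity between the E14-class and the Shadow element of the same coordinates, in each of the 10 columns (NSC blue, IPC red, ages from left to right), for the 4 positions that have both; black lines are means of the 10 columns, and points above 0 mark a higher E14-class element. At +18.1 kb 9 of 10 columns lie above 0, with 4.01 in IPC at E13, and at +21.3 kb the points scatter from -3.21 to 4.38.

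Between cell types, the +18.1 kb E14-class element gave nearly equal means. IPC minus NSC was 0.05 on the log2 scale (two-sided exact permutation of the 10 columns, p = 0.984, adjusted 0.999). Its fold was higher in IPC at E13, age E14 and E15 and higher in NSC at E16 and E17. This order of the cell types over the ages was shared by 32 of 889 E14-class elements (3.60%) and by 2.72% of scrambled controls, so it does not set the element apart. The mean difference depended on the ages used: it was between -0.46 and -0.082 without E13, age E14 or E15 in turn, 0.69 without E16 and 0.29 without E17.

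For the other elements IPC minus NSC ran from -0.33 (E14-class, +4.36 kb) to 1.21 (Shadow, +4.36 kb). The Shadow element at +4.36 kb was higher in IPC at 4 of 5 ages (exact permutation p = 0.103, adjusted 0.788), and so was the E14-class element at +21.3 kb, by 1.09 on average (exact permutation p = 0.278, adjusted 0.904). Without E16 the latter difference was 0.27, and without E13 it was 1.91. The test called 0% of 9886 elements that are not scrambled. At an unadjusted exact p under 0.05 there were 645 of them (6.52%) and 50 of 955 scrambled controls (5.24%). The smallest p that 252 splits allow is 0.00794, and the smallest adjusted p reached was 0.541.

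Over the ages the steepest slopes of the Pax6 elements were in IPC. In IPC the +18.1 kb E14-class element had a slope of -0.92 log2 units per day, a slope reached or passed on the low side by 2.25% of E14-class elements and 0.942% of scrambled controls. In NSC its slope was -0.23. With only E13 and age E14, its mean was 2.59 in NSC and 3.37 in IPC, and with only E16 and E17 it was 2.42 and 0.71. The Shadow element at the same place also had a downward slope in IPC (-0.57), with 4.96% of Shadow elements and 4.50% of scrambled controls at or below. At +21.3 kb the slopes in IPC were opposite, 0.98 for the E14-class element and -0.66 for the Shadow element. At or above the former were 1.24% of E14-class elements and 0.209% of scrambled controls. At or below the latter were 3.54% of Shadow elements and 3.14% of scrambled controls. At +4.36 kb both were upward in IPC, 0.61 for the E14-class and 0.57 for the Shadow element. At or above them were 6.30% of E14-class and 5.43% of Shadow elements, against 2.41% and 2.51% of scrambled controls. Each slope rests on 5 pooled values, and no test was made.

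Correlations among the Pax6 elements across columns centred near 0. Spearman's rho over the 10 columns between pairs of the 9 elements ran from -0.77 (E14-class at +8.99 and +18.1 kb) to 0.88 (E14-class at +11.8 and +21.3 kb), with a median of 0.09 over 36 pairs. The middle 95% of pairs within the E14 class ran from -0.66 to 0.68, and that of scrambled pairs from -0.66 to 0.66. Between classes at the same coordinates rho was 0.31 at +4.36 kb, 0.35 at +11.8 kb, 0.24 at +18.1 kb and -0.30 at +21.3 kb. All these points share their columns, and with 10 of them such values describe the table only.

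The E14-class elements closest in pattern to the +18.1 kb element lay 127 kb from Tenm2 (rho = 0.85), within Nf1 (0.84), 27.8 kb from Eepd1 (0.82), 99.5 kb from Ptpn20 (0.81) and 11.4 kb from Wwc1 (0.78). Closest to the +11.8 kb element were those within Ssbp3 and Maml2 (0.88 each), 15.1 kb from Adtrp, 1.16 kb from Doc2a and 15.5 kb from A230072I06Rik (0.87 each). They were the first 5 of 884 candidates over 10 columns, from which the 5 Pax6 elements were left out; the +21.3 kb element equalled the highest rho with +11.8 kb. Scrambled controls came as close, with a highest rho of 0.88 for both references. With Pearson's r in place of rho, 2 of the 5 were shared for each.

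Elements of other transcription factor genes of cortical progenitors and neurons give the +18.1 kb element a setting; its rank of 1 in the class over all 10 columns (15 without E13) already fixes that comparison. Of 30 listed genes, 19 had an E14-class element within or nearest to them, 34 elements in all and 33 with 10 values. Their median log2 activity over the 10 columns was 0.33, beside 0.36 for all 889 E14-class elements. In NSC 4 of them were called in at least 3 columns and in IPC 5, beside 83 and 140 of the 889. The highest were an element within Hmga2, a chromatin protein of early neural stem cells, at chr10:120387135-120387400 with a mean of 1.81, and one 327 kb from Sox11, a factor of newborn neurons, at chr12:27669624-27669889 with 1.54. An element within Prdm16, a radial glia regulator, followed at chr4:154599996-154600261 with 1.52. One 63.8 kb from Hes1, the Notch target that maintains stem cells, stood at chr16:30001301-30001566 with 1.44, and another 496 kb from Sox11 at chr12:27838484-27838749 with 1.43. The Sox11 elements had higher means in IPC (2.51 and 2.19) than in NSC (0.56 and 0.67), whereas the +18.1 kb Pax6 element was near equal. The permutation test between cell types called 0 of 9886 elements that are not scrambled, both Sox11 elements included. The contrast between elements was not tested.

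Pax6 was also 1 of only 2 among 438 genes with at least 5 E14-class elements in their span, the other being Creb5. The means of the Pax6 elements ran from -0.19 to 2.11 with a median of 0.39, and those of Creb5, a CREB-family transcription factor, from -0.51 to 0.33 with a median of -0.19. Within Pax6 the gap between the highest element and the median of the 5 was therefore 1.72.

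The nearest elements outside the window lay far from it. On the proximal side, an E14-class and a Shadow element shared chr2:105433012-105433277, at -236 kb from the first start. The E14-class element had folds of 0.420 to 2.53 and a mean log2 activity of 0.14, and the Shadow element was above the scrambled median in 10 of 10 columns, with folds of 1.14 to 4.26 and a mean of 0.77. There the Shadow element had the higher mean. At the Pax6 positions the E14-class element did, though at +21.3 kb by only 0.07 ± 2.37 (SD over 10 columns). On the distal side the next E14-class element, within Dcdc5 at chr2:106084477-106084742, had a fold of 90.0 in NSC at E13 and a mean of 0.91. The next Shadow element on that side, at chr2:106425433-106425698, had folds of 0.322 to 1.36 and a mean of -0.04. None of the elements analysed here lay in the part of Elp4 beyond Pax6.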

How the data were processed

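The labels gave the cell type and age of the 24 biological samples of reporter DNA and RNA. The submitters' processing notes name cutadapt, without a version, and build mm10. The aligner, the counting of barcodes and the tool behind the activity score were not given in the sources used. The authors' table has 30 value columns, 3 per group. The first is the authors' activity score (statistic), which is linear, never negative and without a unit per the file headers and its range. The second is the authors' MAD score, the statistic minus the scrambled median over 1.4826 times the scrambled median absolute deviation (checked, largest difference 4.66e-12). The third, the deposited p-value, is its upper-tail normal p after Benjamini-Hochberg adjustment within the column (checked, largest difference 6.11e-15).

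Python 3.11.15 with numpy 2.4.6, pandas 2.3.3 and scipy 1.17.1 was used. Values were divided by the scrambled median of the column and taken to log2 with a pseudocount of 0.1. Both permutation tests treat columns as observations, were run on every element or pair with 10 values and were tested on simulated data. They say nothing of the spread between embryos, and nothing in the labels says whether biological samples came from separate litters. Genes were assigned from 21896 protein-coding genes of GRCm38.p6. The named elements are all those in the window, the nearest on either side, the 5 closest in pattern to the E14-class elements at +11.8 and +18.1 kb, and the 5 highest among the listed transcription factor genes. Members, lists and tests were chosen with earlier results of these data known, among them the high activity at +18.1 kb and the lead of E14-class over Shadow elements, so those results are no independent support. Alternatives were other pseudocounts, scalings, thresholds, the median over ages, pairing by age and leaving out each age. The planned sequence features were not analysed here.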

Additional observations from a re-analysis of the deposited data

Results flagged for a closer look

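In the 5 IPC columns of the E14-class element at +8.99 kb, the value at E16 (2.23 on the log2 scale, a fold of 5.07) stood apart from the other 4 ages, by a gap that exceeded Dixon's 95% critical value. It was the only such case among 18 sets of 5 ages (9 elements, 2 cell types), and chance alone gives about 1 in 20. Ages are not replicates of each other. The value at E16 lay inside the middle 95% of scrambled controls of its column, with 5.64% of them at or above it.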

How the results depend on the processing

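No paired analysis was possible because each column pools the numbered biological samples of its group; this concerns replicate numbers, and cell types were paired by age instead. The activity of the +18.1 kb E14-class element over the 10 columns lay between 1.53 and 2.27 in all alternatives, the lowest without E13, and its lead over the Shadow element between 1.80 and 2.63 (adjusted p 0.131 to 0.265). Its calls numbered 7 as reported and 2 above the 99% limit of the scrambled controls. Its IPC minus NSC difference turned from 0.05 to -0.22 with the median over ages, -0.19 without E13, -0.082 without age E14 and -0.46 without E15. Other differences between cell types that changed sign were those of the E14-class elements at +8.99 kb (-0.041 with the median, -0.11 without E16), +11.8 kb (0.35 without E13) and +4.36 kb (0.059 without age E14). The same held for the Shadow elements at +11.8 kb (-0.016 with the median, -0.10 without E17) and +18.1 kb (0.15 without age E14). E14-class minus Shadow at +21.3 kb became -0.31 with the median, -0.39 without E16 and -0.50 without E17. No Pax6 element or pair passed an adjusted p of 0.05 in any alternative run, which says nothing of stability: the pairing by age allows no exact p below 0.0625, and leaving out an age leaves fewer columns to permute. Depth, and with it counting error, is unknown, and 1 pooled value per column leaves no error between embryos.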
